A study of Mus musculus with 6 samples.

Results

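AP-1 and immediate early genes were examined in growth plate cartilage of mouse embryos in which Cre recombinase was or was not directed to a floxed Hnrnpk allele in chondrocytes. The set was fixed by name, with earlier results of these data known. It holds 10 genes, all of which were found by symbol among the 15803 genes listed. They are the Fos family (Fos, Fosb, Fosl1 and Fosl2), the Jun family (Jun, Junb and Jund), and Egr1, Atf3 and Ier3. RNA was taken from E18.5 growth plate cartilage and sequenced as 6 libraries. Of these, 3 were labelled CKO, from Col2a1-Cre;Hnrnpk fl/fl embryos, and 3 were labelled WT, from Hnrnpk fl/fl embryos. Both genotypes thus carried the loxP-flanked Hnrnpk allele, and they differed by the Cre recombinase, which the Col2a1 promoter directs to chondrocytes. Embryos of both sexes were used and compared with littermates, CKO mice die soon after birth, and whether each library came from 1 embryo or from a pool is not given in the sources used here. P-values therefore measure only the spread between these libraries, which may be technical.

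AP-1 is a dimeric transcription factor assembled from Jun proteins and, most often, a Fos partner, joined through a leucine zipper. Fos, Fosb, Jun, Junb and Egr1 are immediate early genes, which cells transcribe within minutes of a growth factor, a mechanical load or a stress without new protein synthesis, and whose mRNAs decay fast. In the skeleton, Fos, Fosl1 and Fosl2 are known to act in chondrocytes, osteoblasts and osteoclasts, and AP-1 is known to act on genes of matrix turnover such as Mmp13.

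The promoters of Fos, Junb and Ier3 are shown because these genes had no overlap between genotypes, passed limma's adjusted threshold, and are represented in the RefSeq promoter table. They were read from RefSeq on GRCm38.p6, 5′ to 3′ on the strand of the gene, from 250 bases before to 50 bases after the transcription start. The starts are those of RefSeq, and GENCODE gives other starts for Junb and Ier3. Among the further members whose promoters are counted below, GENCODE gives other starts for Fosb, Fosl2, Atf3 and Jund. The Fosl2 and Atf3 windows lie inside the GENCODE genes, and the Jund window ends at 70697788, before the GENCODE start at 70698949. The windows lie at chr12:85473640-85473939 on the plus strand for Fos, at chr8:84978699-84978998 on the minus strand for Junb and at chr17:35821463-35821762 on the plus strand for Ier3. Capitals mark TGACG, the core of the cAMP response element, and TATAAA.
Fos: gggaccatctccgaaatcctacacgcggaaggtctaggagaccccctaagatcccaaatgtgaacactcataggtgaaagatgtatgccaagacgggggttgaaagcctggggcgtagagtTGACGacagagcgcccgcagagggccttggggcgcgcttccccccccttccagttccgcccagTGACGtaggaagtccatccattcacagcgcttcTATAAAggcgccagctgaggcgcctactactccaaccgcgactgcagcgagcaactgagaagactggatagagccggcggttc
Junb: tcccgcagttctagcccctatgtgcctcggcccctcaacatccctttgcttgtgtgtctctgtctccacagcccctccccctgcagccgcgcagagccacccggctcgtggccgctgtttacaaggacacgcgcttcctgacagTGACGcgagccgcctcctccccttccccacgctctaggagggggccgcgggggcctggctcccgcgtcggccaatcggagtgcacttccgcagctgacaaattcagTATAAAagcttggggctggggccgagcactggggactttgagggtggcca
Ier3: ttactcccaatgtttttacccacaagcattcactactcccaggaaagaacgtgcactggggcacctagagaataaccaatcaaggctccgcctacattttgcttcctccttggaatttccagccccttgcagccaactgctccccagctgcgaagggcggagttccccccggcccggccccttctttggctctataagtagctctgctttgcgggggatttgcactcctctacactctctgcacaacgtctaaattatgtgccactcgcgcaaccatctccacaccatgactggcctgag
TGACG was found in the Fos promoter at positions -129 and -66 from the start and in the Junb promoter at position -106, and TATAAA lay at position -33 in Fos and at position 1 in Junb. The Ier3 promoter held neither. Promoters of 8 members were in the table, and 4 of them (Fos, Fosb, Junb and Atf3) held TGACG on either strand, against 20.8% of all 32851 promoters. TATAAA was held by 2 members, against 13.6% of all promoters. GCGNGGGCG, the kind of sequence that Egr1 binds, was held by Fosl2 and Fosb, against 5.55%. The AP-1 site TGANTCA (7.81% of all promoters) was in none of these 8 windows. The full cAMP response element TGACGTCA (1.79%, which also counts as TGACG) and the CArG box of serum response factor (1.63%) were also in none. Egr1 and Fosl1 had no promoter to search, and bases outside the windows were not read, so sites there would have been missed. Both strands were searched for each motif. Other forms of these sites were not counted, such as TGACATCA, which the Jun window holds.

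Where 3 values are given for a genotype, they are in the order of replicates 1, 2 and 3. The values are CPM, reads on a gene per 1000000 reads on all listed genes. The libraries held between 1153871 and 1454094 reads, so 3 reads, taken as the floor of detection, stood between 2.06 and 2.60 CPM, and no member exceeded 143 reads in a library. Floors and intervals cover counting error only. Hnrnpk itself was at 842 to 955 CPM in the libraries labelled WT and 759 to 949.9 CPM in those labelled CKO (log2 fold change -0.14, standard error 0.15, limma's adjusted p = 0.622). Cre removes only the loxP-flanked exons, so reads over the whole gene need not fall and this level does not check the labels. Each direction given here rests on the labels, and WT and CKO stand for libraries so labelled. Some libraries were closer to each other than others. The chi-square per gene, which is 1 for counting noise alone, was 1.27 between CKO 1 and CKO 3 and 1.89 between WT 1 and WT 2, against 7.27 to 11.8 for the other pairs within a genotype. CKO 2 and WT 3 thus stood apart from the rest of their groups.

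Of the 10 members, all were tested with limma on log2(CPM + 1) among 12155 genes, and 4 rose in the libraries labelled CKO with an adjusted p under 0.05. These were Fos, Fosl1, Junb and Ier3. Among all genes tested 3.18% were called higher and 2.60% lower, and 0 members were called lower by limma, by edgeR or by DESeq2. At an unadjusted p under 0.05, 1 member was lower, Jund. The criterion given in the study's methods, a log2 fold change beyond 1 in size with an unadjusted p under 0.05, was met by 6 members that were higher, which adds Fosl2 and Egr1, and by 0 that were lower, against 5.30% and 5.10% of all genes. The study's RNA-seq methods do not name the test behind p. Here the fold change and p of limma were used, so the study's own calls may differ. The genotypes did not overlap in 8 members, of which 7 were higher and 1 was lower, against 14.5% and 13.2% of all genes. The median log2 fold change of the members was 1.20, against 0.013 over all genes tested. Because the members were chosen with earlier results of these data known, these comparisons with all genes are descriptions only. The count of 4 depended on single libraries. It was 2 without WT 2 and 2 without CKO 3. With the closest libraries of each genotype averaged into 1, an alternative chosen after the data were seen, it was 0. Calls fell over all genes too, with 387 higher in the main fit, 133 without WT 2 and 123 without CKO 3. With the averaging only 5 of 12197 genes were called higher, and 6 members were higher at an unadjusted p under 0.05.

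**Figure D1:**
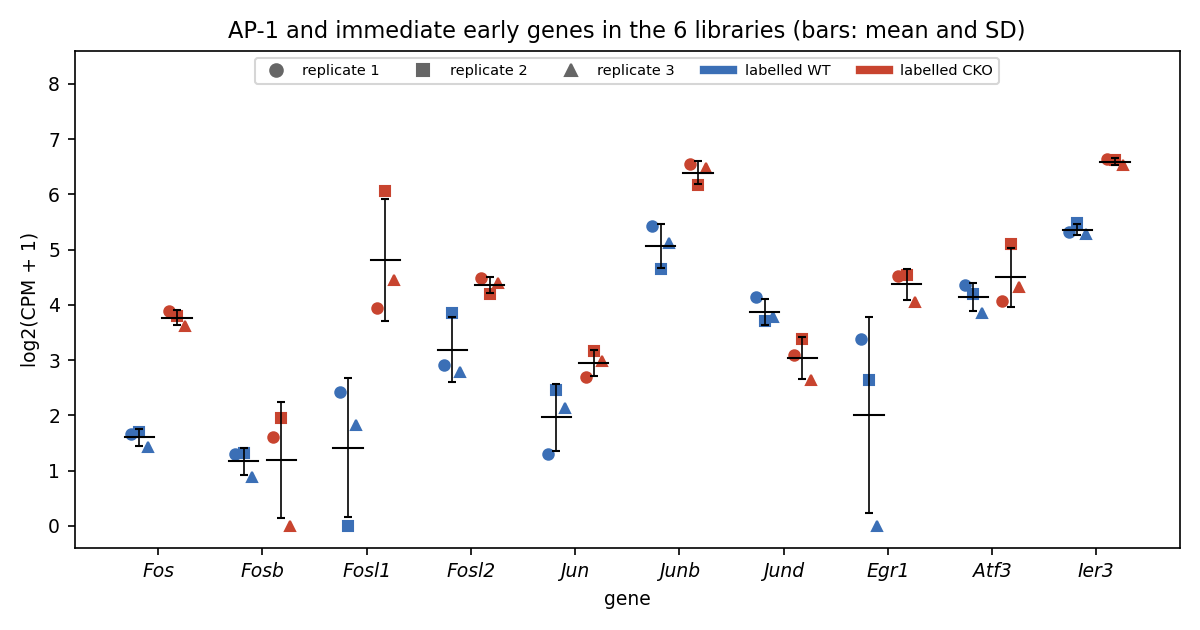
Level of each of the 10 members in the 6 libraries, as log2(CPM + 1), with the 3 libraries labelled WT in blue and the 3 labelled CKO in red. Symbols mark the replicate number, horizontal lines the mean and bars the SD. The genotypes do not overlap in 8 members, Jund is the one that is lower in the libraries labelled CKO, and Fosl1 is far higher in CKO 2 than in the others.

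Fos (ENSMUSG00000021250, GRCm38 chromosome 12, 85473890 to 85477273), the first described partner of Jun in AP-1, measured 2.17, 2.25 and 1.69 CPM in WT against 13.8, 13.0 and 11.3 CPM in CKO. Each library labelled WT was at or under the floor, with 8 reads in all, and each library labelled CKO was well above it, with 51 reads in all. On the log2(CPM + 1) scale Fos rose by 2.17 (standard error 0.36, limma's adjusted p = 0.00795). The ratio of its pooled reads was 6.22, with an exact 95% counting interval from 2.93 to 15.2. It was called in all 6 fits that left out a library, with log2 fold changes from 2.08 to 2.25.

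Fosl1 (ENSMUSG00000024912, GRCm38 chromosome 19, 5447547 to 5455946) encodes Fra-1, a Fos protein without the transactivation domain of Fos. It measured 4.35, 0 and 2.53 CPM in WT against 14.4, 65.7 and 20.8 CPM in CKO. All libraries labelled CKO lay above those labelled WT, and CKO 2 alone held 91 of the 136 reads of its genotype. The log2 fold change of Fosl1 was 3.40 (standard error 0.68, limma's adjusted p = 0.0190), the largest log2 fold change among the members, from 9 reads in all libraries labelled WT. It lay between 2.70 and 3.91 in the 6 fits that left out a library. Without CKO 2 it was 2.78 (adjusted p = 0.0232) and without WT 2 it was 2.70 (adjusted p = 0.0663). The call was also lost without CKO 3 (adjusted p = 0.0602) and with a pseudocount of 0.1 (adjusted p = 0.0667). Of its exon bases 57.2% are shared with Ccdc85b on the opposite strand, and the strand setting of the read counting is not given in the sources used here, so reads there cannot be told apart. Ccdc85b itself measured 10.9, 14.3 and 11.0 CPM in WT against 4.13, 15.9 and 6.07 CPM in CKO, and its part in the Fosl1 values was not tested.

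Fosl2 (ENSMUSG00000029135, GRCm38 chromosome 5, 32135801 to 32157842), which encodes the related Fra-2, measured 6.52, 13.5 and 5.91 CPM in WT against 21.3, 17.3 and 19.9 CPM in CKO. The genotypes did not overlap, and WT 2 was nearest to the libraries labelled CKO. Fosl2 passed the study's criterion with a log2 fold change of 1.17 (standard error 0.35), while limma's adjusted p was 0.0816. The adjusted p ranged from 0.0648 to 0.236 with each library left out in turn.

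Fosb (ENSMUSG00000003545, GRCm38 chromosome 7, 19302696 to 19310051) was near the floor, with 1.45, 1.50 and 0.845 CPM in WT against 2.06, 2.89 and 0 CPM in CKO. That is 5 reads against 7, and the libraries overlapped. Its log2 fold change was 0.025, with a 95% interval from -1.29 to 1.34 (limma's adjusted p = 0.986), so neither direction was detectable at this depth.

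**Figure D2:**
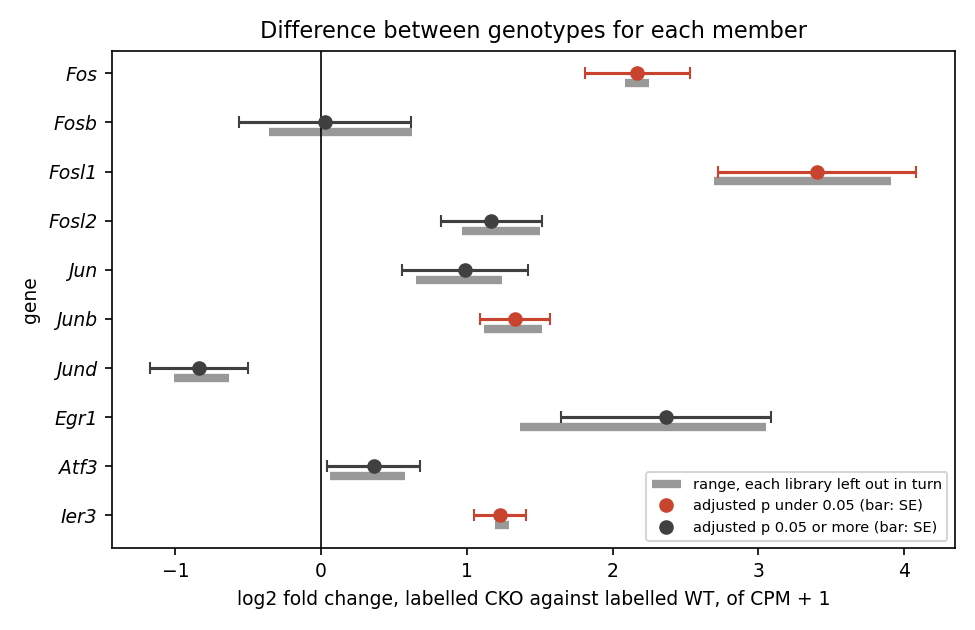
Log2 fold change of CPM + 1 between the libraries labelled CKO and WT for each member, with bars for the standard error from limma and grey bands for the range with each library left out in turn. Fos, Fosl1, Junb and Ier3, in red, have an adjusted p under 0.05, Jund lies at -0.84 and Fosb at 0.025.

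Junb (ENSMUSG00000052837, GRCm38 chromosome 8, 84974484 to 84978718) encodes a Jun protein known to act both as a partner of Fos proteins and as a brake on Jun activity. It measured 42.0, 24.0 and 33.8 CPM in WT against 92.8, 70.7 and 87.5 CPM in CKO. The libraries did not overlap, and replicate 2 was the lowest in each genotype. On the log2 scale Junb rose by 1.33 (standard error 0.24, limma's adjusted p = 0.0121), and its pooled reads by 2.51-fold with an exact 95% counting interval from 2.04 to 3.09. The call was lost without WT 2 (adjusted p = 0.0599), without CKO 1 (0.0609) and without CKO 3 (0.0640), while the log2 fold change stayed between 1.12 and 1.51. The gene shares 7.52% of its exon bases with Prdx2 on the opposite strand, which measured 665, 717 and 748 CPM in WT against 888, 519 and 860 CPM in CKO. The part of Prdx2 in the Junb values was not tested.

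Jun (ENSMUSG00000052684, GRCm38 chromosome 4, 95049034 to 95052222), the founding AP-1 subunit, measured 1.45, 4.50 and 3.38 CPM in WT against 5.50, 7.94 and 6.93 CPM in CKO. The genotypes did not overlap, but the gap between WT 2 and CKO 1 was that between 6 and 8 reads. Its log2 fold change was 0.99, with a 95% interval from 0.028 to 1.95 (limma's adjusted p = 0.219). The antisense gene Junos covers 7.28% of its exon bases.

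Jund (ENSMUSG00000071076, GRCm38 chromosome 8, 70698949 to 70700616) encodes a Jun protein that, unlike Jun and Junb, is known for a steady level in resting cells. It was the member that went the other way, with 16.7, 12.0 and 12.7 CPM in WT against 7.56, 9.38 and 5.20 CPM in CKO. The genotypes did not overlap, and CKO 2 came nearest to the WT values. The log2 fold change was -0.84, with a 95% interval from -1.58 to -0.094 (limma's adjusted p = 0.182), and it remained negative in all 13 alternatives without an adjusted p under 0.05. The antisense gene Gm11175 covers 52.6% of the annotated exon bases of Jund, and its part in these values was not tested.

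Levels of different genes are compared per length, as CPM per kb of the exons annotated for all transcripts of a gene. On this scale Junb made up 54.8% to 63.6% of the Jun family in the libraries labelled WT and 79.1% to 87.8% in those labelled CKO. Jund made up 32.5% to 37.8% in WT and 7.19% to 14.5% in CKO, and Jun between 1.58% and 7.41% over all libraries. The Jun family summed to between 19.1 and 28.7 CPM per kb in WT and between 38.9 and 46.6 in CKO. The Fos family summed to between 2.59 and 3.97 CPM per kb in WT and between 15.5 and 40.1 in CKO, where Fosl1 made up 45.9% in CKO 1, 80.6% in CKO 2 and 59.9% in CKO 3. Shares within the Fos family in WT rest on few reads, since Fosl1 ranged there from 0% to 53.9%. Of the exon bases, 52.6% of Jund and 57.2% of Fosl1 are shared with another gene. Without the strand setting, reads there may have been lost or added, while the full exon length was used. The levels of Jund and Fosl1, and the shares within both families, may therefore be off in either direction.

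**Figure D3:**
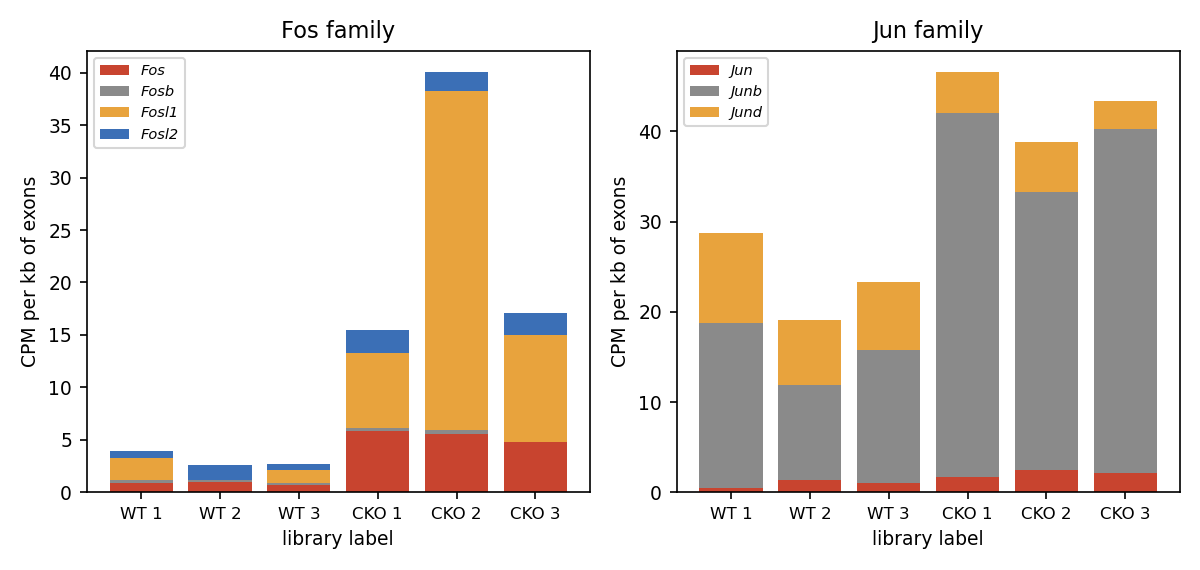
Summed level of the Fos family (left) and the Jun family (right) in each library, in CPM per kb of annotated exons, with 1 color per gene. The Fos family lies at or below 3.97 in the libraries labelled WT and at or above 15.5 in those labelled CKO. By these values Junb is the main part of the Jun family throughout. Reads may have been lost or added on the exon bases that Jund and Fosl1 share with other genes.

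Ier3 (ENSMUSG00000003541, GRCm38 chromosome 17, 35821684 to 35822923), an early response gene known for its part in cell survival, measured 39.1, 43.5 and 38.0 CPM in WT against 98.3, 97.4 and 91.0 CPM in CKO. Relative to its means its libraries were the tightest of all members, with means of 40.2 ± 2.91 CPM in WT and 95.6 ± 4.01 CPM in CKO (± SD, n = 3 each). On the log2 scale Ier3 rose by 1.23 (standard error 0.18, limma's adjusted p = 0.00454). It was called in all 6 fits that left out a library, with log2 fold changes between 1.19 and 1.29. It also had the smallest p-value of the members, the 92nd among all genes tested.

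Egr1 (ENSMUSG00000038418, GRCm38 chromosome 18, 34859823 to 34864984), a zinc finger factor induced alongside Fos, measured 9.42, 5.25 and 0 CPM in WT against 22.0, 22.4 and 15.6 CPM in CKO. The genotypes did not overlap, and the spread was wide in WT, where WT 3 had 0 reads, which allows up to 2.53 CPM. With a log2 fold change of 2.37 (standard error 0.72) Egr1 passed the study's criterion, while limma's adjusted p was 0.0857. Without WT 3 the log2 fold change was 1.36, and with DESeq2 on the recovered reads the adjusted p was 0.0488.

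Atf3 (ENSMUSG00000026628, GRCm38 chromosome 1, 191170296 to 191218039), a stress-induced factor that binds DNA alone or with Jun proteins, measured 19.6, 17.3 and 13.5 CPM in WT against 15.8, 33.2 and 19.1 CPM in CKO. The genotypes overlapped, with CKO 1 and CKO 3 inside the WT range and CKO 2 above it. The log2 fold change was 0.36, with a 95% interval from -0.35 to 1.07 (limma's adjusted p = 0.567), and without CKO 2 it was 0.062.

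In the libraries labelled WT, Ier3 had the highest level per length of the members, at 33.6 to 38.5 CPM per kb, followed by Junb at 10.4 to 18.3. Jund at 7.20 to 9.99 and Atf3 at 6.28 to 9.09 came next and overlapped. Fosl1, Egr1, Jun, Fosl2 and Fos had means between 0.867 and 1.13 CPM per kb and did not differ beyond their spread, and Fosb was lowest, at 0.135 to 0.240. In the libraries labelled CKO, Ier3 (80.5 to 87.0) and Junb (30.7 to 40.3) remained first and second. Fosl1 had the third highest mean, 16.5 CPM per kb, and with 32.3 in CKO 2 overlapped both Junb and Atf3 (7.34 to 15.4). Fos (4.79 to 5.85), Egr1 (3.48 to 4.99) and Jund (3.12 to 5.63) overlapped, as did Jun and Fosl2, and Fosb was again last. The ranks of Jund and Fosl1 in both genotypes are limited by the exon bases they share with other genes.

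The genes most like Fos across the 6 libraries were Ier3 (Pearson's r = 0.998), Pmm1 (0.996), Cstb (0.995), Aprt (0.995) and Crip2 (0.995), among the 5022 genes whose mean reached 20 CPM. Those most like Jun were Bak1 (0.996), Nubp2 (0.957), Ctnna1 (0.957), Dnajc5 (0.956) and Xpnpep1 (0.956). These values describe 6 libraries that share their genotype difference, and Fos and Jun rest on few reads.

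Related genes were counted in lists, each with the adjusted threshold over all genes tested, of which 3.18% were called higher and 2.60% lower. The lists, too, were written with earlier results of these data known. Of 37 tested genes in a list of 51 other immediate early and delayed early genes, 8 rose, 0 fell and 29 did not pass, with a median log2 fold change of 0.61 against 0.013 over all genes. The largest increase was that of Hbegf, a ligand of the EGF receptor, from 14.5, 14.3 and 7.60 CPM in WT to 48.8, 113 and 39.0 CPM in CKO (log2 fold change 2.27, limma's adjusted p = 0.0108). Dusp6, the phosphatase that switches off ERK, rose by 2.04 (adjusted p = 0.00314), from between 6.76 and 10.9 CPM to between 35.1 and 43.3 CPM. Ccn1, a secreted matricellular protein listed under its older symbol Cyr61, rose by 1.99 (adjusted p = 0.00159), from between 168 and 304 CPM to between 886 and 1161 CPM. Hbegf, Dusp6 and Ccn1 did not overlap between genotypes and were called in all 6 fits that left out a library. Btg2, an antiproliferative gene and p53 target, rose by 1.89 (adjusted p = 0.00263), the kinase gene Plk2 by 1.85 (adjusted p = 0.0111), and Errfi1, a feedback inhibitor of the EGF receptor, by 1.56 (adjusted p = 0.0238). Errfi1 was at 184.8 CPM in CKO 2 against 68.8 and 104.0 CPM in CKO 1 and CKO 3, and was called in 3 of the 6 fits. The count of 8 was 5 without WT 1, 8 with edgeR and with DESeq2 and 0 with the closest libraries averaged, where 13 of the list were higher at an unadjusted p under 0.05.

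Of 14 tested genes for other leucine zipper proteins, among them partners of the AP-1 subunits, 0 rose and 1 fell, with a median log2 fold change of -0.15. The gene that fell was Atf5, from 109, 80.3 and 62.5 CPM in WT to 35.8, 41.1 and 44.2 CPM in CKO (log2 fold change -1.01, limma's adjusted p = 0.0336). Among 13 MAP kinases and MAP kinase kinases, which relay growth factor and stress signals to these genes, 0 were called in either direction by limma, by edgeR or by DESeq2, and their median log2 fold change was 0.27. At an unadjusted p under 0.05, 2 were higher and 0 lower. The 3 with the smallest p-values were Mapk13, Map2k3 and Mapk14, with log2 fold changes of 0.92, 0.55 and 0.93 and adjusted p of 0.133, 0.146 and 0.245. In the list of 11 serum response and CREB factors, with a median log2 fold change of 0.39, 0 rose and 1 fell. Crtc1, a coactivator of CREB, fell by 1.44 (limma's adjusted p = 0.0159), from 26.1, 22.5 and 27.0 CPM in WT to 10.3, 7.22 and 8.67 CPM in CKO. Atf5 was not called without WT 1, WT 2, CKO 1 or CKO 3, nor Crtc1 without WT 1, WT 2 or CKO 3.

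A list of 25 genes described as AP-1 targets held 18 tested genes, of which 9 rose and 0 fell. Of all genes tested, 3.18% were called higher and 2.60% lower. The median log2 fold change of the list was 1.51, against 0.013 over all genes. One of the 9 is Fosl1, itself a member, and Hbegf is also in the list of early genes. Mmp13 was not among the 9 (limma's adjusted p = 0.118). It measured 257, 260 and 650 CPM in WT against 2155, 377 and 2301 CPM in CKO. CKO 2 lay inside the WT range, and without CKO 2 the adjusted p of Mmp13 was 0.000929. Plaur, the urokinase receptor gene, rose by 2.44 (limma's adjusted p = 0.00161), from between 19.5 and 41.4 CPM to between 135 and 208 CPM. Spp1 and Timp1 rose by 2.84 and 2.33 (adjusted p = 0.00403 and 8.23e-05). Plaur, Spp1 and Timp1 were called in all 6 fits that left out a library. The count of 9 lay between 7 and 10 in those fits and was 1 with the closest libraries averaged. The list was written by hand with earlier results of these data known, and many of its genes have other regulators.

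**Figure D4:**
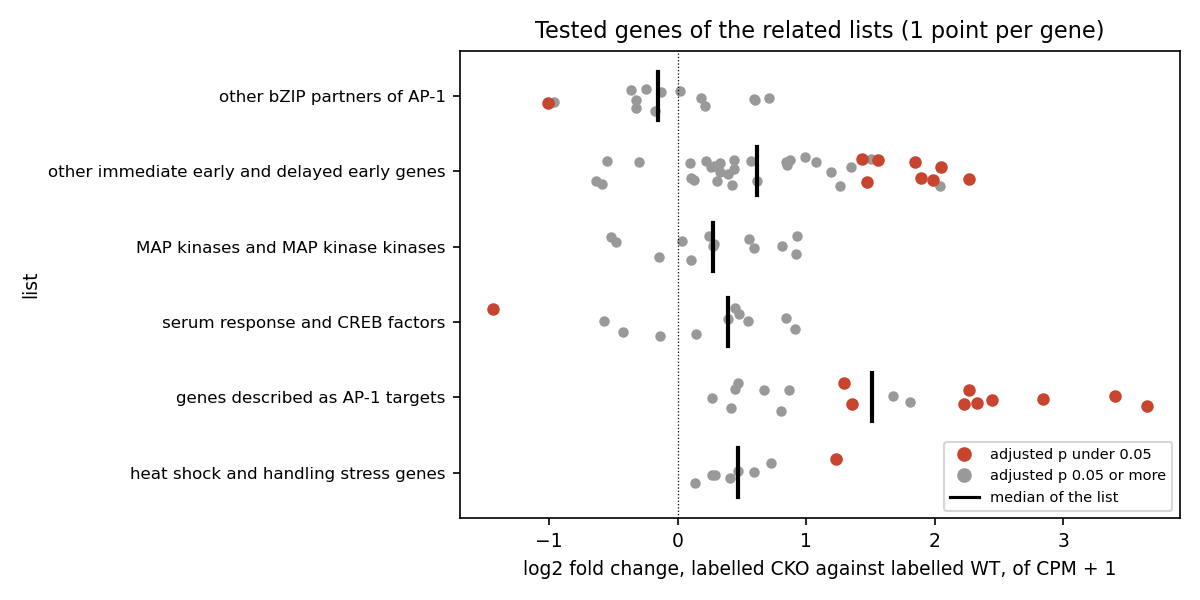
Log2 fold change of CPM + 1 between the libraries labelled CKO and WT for the tested genes of 6 related lists, with 1 point per gene, called genes in red and the median of each list as a vertical line. The AP-1 target list has the highest median, 1.51, and the leucine zipper partners have a median of -0.15.

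Handling of tissue can also raise immediate early genes, so heat shock genes were read beside them. Of 9 tested genes, 1 rose and 0 fell, with a median log2 fold change of 0.47 against 0.013 over all genes. The log2 fold changes of these 9 ran from 0.13 to 1.24, so none was negative. At an unadjusted p under 0.05 by limma, 2 were higher and 0 lower. Hsp90aa1, a cytosolic chaperone gene, rose by 1.23 (limma's adjusted p = 0.00931), from between 67.4 and 87.0 CPM to between 150.6 and 239.6 CPM, and was not called without WT 1 or without WT 2. Hspa1a was at or under 2.17 CPM and Hspa8 at or under 2.60 CPM in each library, and Hspa1b was not analysed here. How reads that match several genes were counted was not examined, so the true levels of Hspa1a and Hspa8 may be higher. Hspb1 was at 41.1 CPM in CKO 2 and at or under 5.91 CPM in the other libraries, and it was not called (limma's adjusted p = 0.478). The part of handling in the values of the members was not tested.

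The cartilage markers were abundant in both genotypes, with a summed level of 6687 to 10425 CPM in WT and 2987 to 4160 CPM in CKO, where 5 of 8 tested markers fell. Epidermis markers summed to between 29.6 and 55.8 CPM in WT and between 207 and 216 CPM in CKO, where Sbsn and Perp of 3 tested genes rose and Krt1 stayed under 1 CPM. Krt10, the other tested gene, measured 39.1, 29.3 and 16.9 CPM in WT against 34.4, 44.0 and 31.2 CPM in CKO. It was not called (limma's adjusted p = 0.484). Macrophage markers summed to 63.1, 63.8 and 297 CPM in WT 1, 2 and 3 and to between 178 and 202 CPM in CKO. Of 6 tested, Cd68 rose, while Ptprc was at 0 in 5 of the 6 libraries and reached 0.722 CPM in CKO 2. Osteoblast markers summed to between 457 and 691 CPM in WT and to 1276, 367 and 1369 CPM in CKO 1, 2 and 3. Of 6 tested, 0 were called in either direction. At an unadjusted p under 0.05 by limma, 2 were higher and 1, Col1a1, was lower. Without CKO 2, 3 were called higher (Bglap, Bglap2 and Ibsp) and 0 lower. Osteoclast markers summed to between 89.9 and 97.1 CPM in WT and between 106 and 117 CPM in CKO. Muscle markers summed to between 29.3 and 127 CPM in WT and between 67.8 and 79.8 CPM in CKO, and endothelial markers to at most 15.8 CPM in any library. Erythroid markers reached 28.9 CPM in CKO 2 and at most 6.07 CPM elsewhere, and neutrophil markers at most 5.77 CPM. None of the markers read was at 0 in all 6 libraries, and Kdr, Krt5 and Krt14 were not analysed here. In bulk tissue, fewer cells of a type and less RNA per cell cannot be told apart, and the part of these cell types in the values of the members was not tested.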

How the data were processed

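Library construction used a stranded mRNA kit, and each column of the table was matched to its sample by genotype and replicate number. The submitters' processing notes name cutadapt (version 2.5), HISAT2 and featureCounts (version 1.6.3), and the genome build, annotation and strand setting are not given in the sources used here. The authors deposited CPM for 15803 genes. All values (100%) were whole multiples of the CPM of 1 read, within a tolerance of 0.01 reads, and these reads were recovered. Depth ranged from 1153871 to 1454094 reads.

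With limma (version 3.58.1, R 4.3.3), log2(CPM + 1) was modelled on genotype for the 12155 genes whose mean reached 1 CPM, with the variance prior following the mean level and p-values adjusted by the Benjamini-Hochberg method over these genes. Fold changes of low genes on this scale can be smaller or larger than those from count models. Fos rose by 2.17 here, by 2.54 with edgeR and by 2.60 with DESeq2, and Egr1 by 2.37, 1.93 and 1.97. Alternatives were a pseudocount of 0.1, no filter, TMM scaling, a replicate term, each library left out, edgeR's quasi-likelihood test (version 4.0.16) and DESeq2 (version 1.42.0) on the recovered reads, and, added later, averaging of the closest libraries. Members and lists were chosen with earlier results of these data known. Besides the members, the genes named are, per list, up to 6 called genes per direction by size of change or else the 3 with the smallest p, and the 5 genes most like Fos and Jun by Pearson's r of log2(CPM + 1). Of the genes that this rule names, 1 is not reported here. Ccdc85b, Hspa1a, Hspa8, Hspb1, Krt1, Krt10, Ptprc, Sbsn, Perp, Cd68, Mmp13, Col1a1, Bglap, Bglap2 and Ibsp were named after their values were seen. Coordinates and exon lengths are from GENCODE M21 (GRCm38), matched by identifier. Exon bases shared with another gene were counted on either strand.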

Additional observations from a re-analysis of the deposited data

How the results depend on the processing

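The 6 members higher by the study's criterion were 5 to 7 in each alternative. The 4 members called higher were 2 to 4 with each library left out in turn and 5 with DESeq2. They were 3 with the replicate block and 3 with a pseudocount of 0.1. With the closest pair of each genotype averaged, which leaves 4 libraries, the count was 0. Of all 12197 genes tested there, 5 were called higher. Without CKO 2, 1 member, Jund, was lower by the criterion, and 0 were so without any other library. The related lists held 16 genes called higher outside the members, and 1 with the closest pairs averaged. The same lists held 2 called lower, which were 0 to 3 with each library left out, 1 with the replicate block and 0 with the closest pairs averaged. The log2 fold change of Fosb changed sign with a pseudocount of 0.1 (-0.62), without WT 3 (-0.12), without CKO 1 (-0.19) and without CKO 2 (-0.36), and ranged from -0.36 to 0.62 with each library left out. The signs of the other 9 members were the same in each alternative that gave a value. Jun and Fosb were not tested by edgeR, whose filter removed them, and had no adjusted p in DESeq2. Libraries with the same number did not deviate together (correlations of 0.073, -0.21 and -0.15 for numbers 1, 2 and 3), so the replicate block pairs numbers only. With it Fosl1 had an adjusted p of 0.0544. Depth limits Fosb, Fos, Fosl1 and Jun most, with 5, 8, 9 and 12 reads over the libraries labelled WT. The cause of these changes was not tested.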
